A study of Mus musculus with 12 samples.

Results

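The RNA of 6 aquaporin genes, Aqp3, Aqp9, Aqp1, Aqp4, Aqp5 and Aqp11, was followed across 12 mouse prostate organoid samples, as the rows carrying those gene names among the 24674 genes of one expression table. Aqp3 was picked because its coefficients for UK5099 and for butyrate and its interaction of the drugs were among the largest of all genes in these same samples, and the other 5 genes were taken by family name with earlier results known, so their levels against vehicle are given as a description with no p-value. The organoids were grown from basal prostate cells of wildtype C57BL/6 mice, and the study's methods describe male donors of 3 to 6 months of age. There were 4 groups of 3 samples, which received vehicle, UK5099 (an inhibitor of the mitochondrial pyruvate carrier), butyrate (an inhibitor of histone deacetylases) or UK5099 + butyrate, called the combination here. The labels name no engineered allele in any sample. The question asked of these samples was how far blocking pyruvate entry into mitochondria and blocking histone deacetylation act alike on RNA levels. Nothing in the labels says whether the 3 replicates came from separate mice or cultures, so p-values measure only the spread between these samples.

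Aquaporins are membrane channels that sit in the membrane as tetramers, with a pore in each subunit. Orthodox aquaporins (Aqp1, Aqp4, Aqp5) pass water, aquaglyceroporins (Aqp3, Aqp7, Aqp9) pass water, glycerol and other small uncharged solutes, and Aqp11 belongs to a divergent group found largely on membranes inside the cell. AQP3 is the main aquaglyceroporin of the basal and lower suprabasal layers of stratified epithelia such as the epidermis, AQP5 is known from the apical membrane of glandular epithelia, AQP4 from glia and several epithelia, AQP1 from endothelium and erythrocytes, and AQP9 from hepatocytes and leukocytes.

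The sequence upstream of Aqp3 is shown because Aqp3 had by far the largest changes of the 6, and that upstream of the downstream of the 2 annotated Aqp9 starts because Aqp9 kept the same order of groups as Aqp3 (values below the sequences). The window of the upstream Aqp9 start held no match to the motifs below and overlaps an exon of a coding transcript, for which reason it is not shown. Both are the 250 bases before a RefSeq start (GRCm38.p6), 5′ to 3′ on the minus strand, at chr4:41098184-41098433 for Aqp3 and at chr9:71162634-71162883 for Aqp9. Capitals mark matches, on either strand, to 6 motifs: the TATA box (TATAAA), the GC box (GGGCGG), the CCAAT box (CCAAT), the AP-1 site (TGANTCA), the E-box (CACGTG) and the CACCC box (CCACCC). No matches overlapped in these sequences.
Aqp3: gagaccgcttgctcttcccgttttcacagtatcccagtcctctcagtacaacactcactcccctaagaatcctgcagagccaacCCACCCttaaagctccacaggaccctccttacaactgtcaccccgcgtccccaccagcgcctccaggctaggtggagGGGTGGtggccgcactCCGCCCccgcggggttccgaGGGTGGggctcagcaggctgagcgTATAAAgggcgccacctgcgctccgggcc
Aqp9, downstream start: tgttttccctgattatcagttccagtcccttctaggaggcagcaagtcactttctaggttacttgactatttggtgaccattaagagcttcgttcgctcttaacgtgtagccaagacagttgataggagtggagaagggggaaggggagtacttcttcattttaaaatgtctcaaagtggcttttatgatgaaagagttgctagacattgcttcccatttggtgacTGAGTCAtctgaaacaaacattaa
The Aqp3 window held a TATA box, with its first base 29 bases before the start, a GC box and 3 CACCC boxes. The Aqp9 window held an AP-1 site, with its first base 24 bases before the start. Of 32851 windows of the same length upstream of annotated starts, 12.4% held the TATA box, 32.7% the GC box, 33.8% the CCAAT box, 6.75% the AP-1 site, 6.02% the E-box and 28.1% the CACCC box. G and C made up 64.0% of the Aqp3 window and 41.6% of this Aqp9 window, against a median of 52.4% over all windows. Of the other genes, the Aqp5 window was the richest in G and C at 78.4% with 38 CpG dinucleotides, against 14 for Aqp3. It held 2 GC boxes and an E-box, and it overlaps an exon of a coding transcript. The Aqp1 window, which does not, had 62.0% G and C and 3 matches, to the GC box and the CACCC box. No entry for Aqp4 was used. These matches describe the letters only, and no measurement of factor binding was made here.

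The 12 libraries held between 33252132 and 43499017 fragments. Replicates differed by 2.07 to 2.97 times the sampling noise (chi-square per degree of freedom), except that UK5099 replicate 1 and combination replicate 1 stood 7.67 to 8.27 times the sampling noise from the other replicates of their groups. Values without both libraries are given beside the main results they touch, not beside every value. Basal markers of the labelled cells, such as the keratin Krt5, were present, 5 of 5 at 1 TPM or more in each group, and so were luminal markers such as Krt8, 6 of 6 in 3 groups and 5 of 6 in the combination. Levels per exonic length are given as exonic FPKM, the fragments per kb of exon scaled to equal library totals. In these units the basal list summed to 2048 to 2094 in vehicle samples, 5625 to 5734 under UK5099, 3109 to 3214 under butyrate and 5661 to 5805 under both. The luminal list summed to 3904 to 3989, 2360 to 2546, 2597 to 2607 and 1703 to 1900 in the same order. The basal rise with butyrate was uneven across the list. In TPM, Krt5 and Trp63 were higher than with vehicle (3152 against 1848 and 8.46 against 5.23). Krt14, Itga6 and Itgb4 were lower (1391 against 1676, 33.1 against 38.0 and 123 against 204). Mean fragments per sample were lower only for Itgb4, at 36832 against 49016. With both drugs Itgb4 was at 150 TPM. The part of these shifts in the aquaporin levels was not tested. In bulk RNA, fewer cells of a type and less RNA per cell cannot be told apart.

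Aqp3 (ENSMUSG00000028435, chromosome 4, 41092722 to 41098183, minus strand) was higher with each drug and highest with both. Gene coordinates are those of the table, for which the submitters' processing notes name GRCm39. Its TPM, the deposited measure of expression scaled for gene length and library size, was 3.57, 3.54 and 2.92 in the vehicle samples. UK5099 samples held 154, 145 and 161, butyrate samples 104, 107 and 105, and combination samples 298, 269 and 272. All 4 groups were separate, in the order vehicle, butyrate, UK5099 and combination. Mean TPM was 45.8 times that of vehicle under UK5099, 31.5 times under butyrate and 83.7 times under both. These levels rested on 124 to 133 fragments per vehicle sample and on 14601 to 17926 per combination sample. On the log2(TPM + 1) scale of the fit, which understates changes of low values, UK5099 had a coefficient of 5.15 ± 0.07, butyrate one of 4.62 ± 0.07 and both drugs together one of 6.02 ± 0.07 (SE, n = 3 per group). Among 24674 genes these ranked 5th, 5th and 8th highest, and on recovered fragments 28th, 26th and 40th. Without UK5099 replicate 1 and combination replicate 1, the coefficients were 5.15 for UK5099 and 5.97 for the combination.

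**Figure D1:**
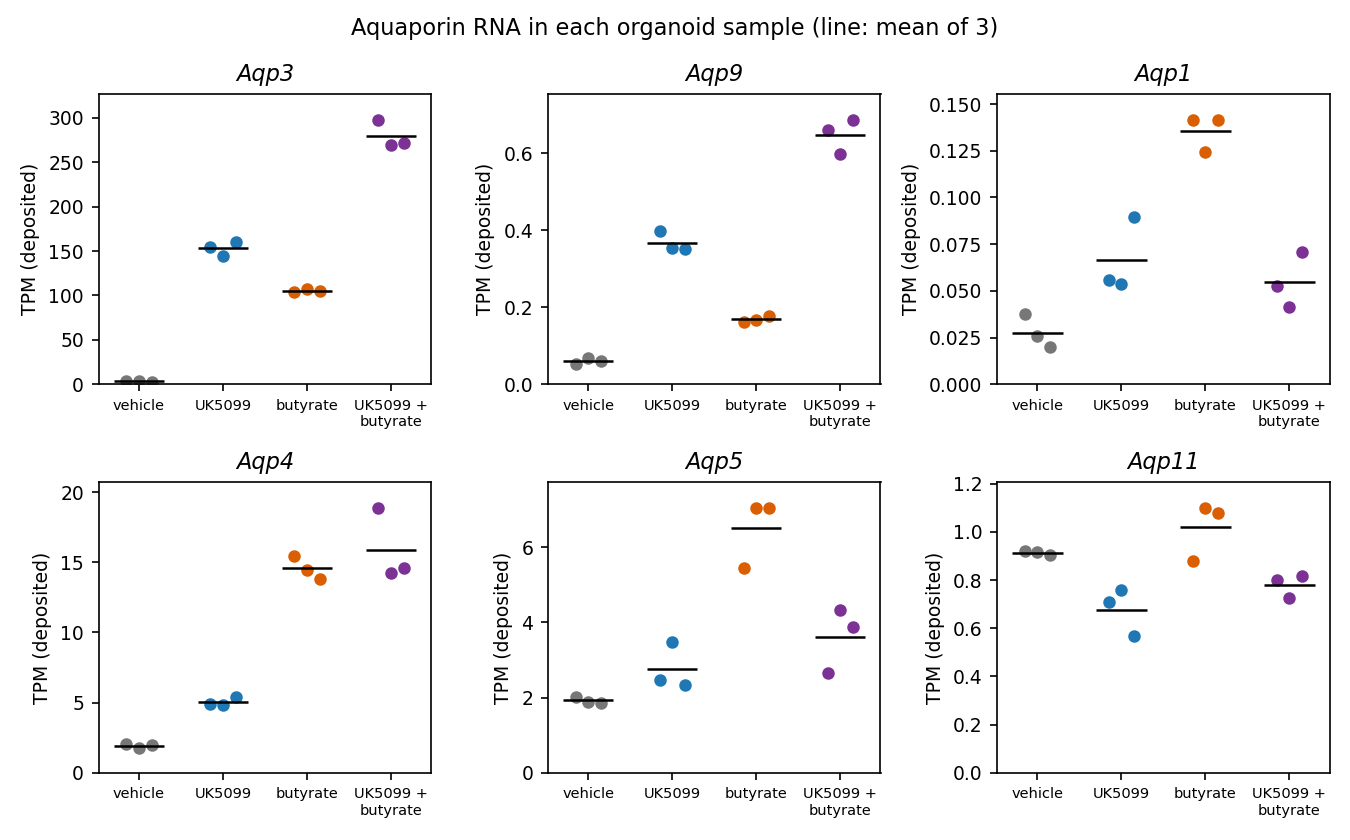
TPM of the 6 aquaporin genes (y axis, linear, from 0, a separate scale in each panel) in each of the 12 samples (points, 3 per group, replicate 1 to 3 from left), with the group mean as a line. Aqp3 and Aqp9 show the order vehicle, butyrate, UK5099 and combination, whereas Aqp1 and Aqp5 are highest with butyrate alone.

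The aquaglyceroporin Aqp9 (ENSMUSG00000032204, chromosome 9, 71017941 to 71075964, minus strand) had the same order of groups as Aqp3 at a far lower level. Its TPM was 0.0520, 0.0672 and 0.0599 with vehicle and 0.398, 0.353 and 0.352 with UK5099. It was 0.163, 0.168 and 0.177 with butyrate and 0.660, 0.597 and 0.686 with the combination. No groups overlapped. The ratios to vehicle were 6.16, 2.84 and 10.8 for UK5099, butyrate and the combination, from 20 to 29 fragments per vehicle sample and 344 to 422 per combination sample. The table scales each gene by its whole genomic span, 58024 bp for Aqp9, although its exons cover 4143 bp. Its TPM values therefore lie well below the added constant of 1, and its coefficients on that scale were 0.37 ± 0.02, 0.14 ± 0.02 and 0.64 ± 0.02. With fragments as the measure (voom), the same differences were 2.75 ± 0.20, 1.80 ± 0.22 and 3.88 ± 0.22 on the log2 scale.

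Aqp7, which lies 44.6 kb from Aqp3 on the same strand and is known as the glycerol channel of adipocytes, was near the detection limit. It had 5 fragments over the 3 vehicle samples, 2 under UK5099, 11 under butyrate and 27 under both drugs. The combination samples held 12, 4 and 11 of these. The ratio of the combination to vehicle was 3.67 with a 95% interval of 1.39 to 12.2 (exact, counting error only).

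Among the water channels, Aqp4 (ENSMUSG00000024411, chromosome 18, minus strand) was higher with butyrate than with UK5099. Its TPM was 2.02, 1.78 and 1.95 with vehicle and 4.89, 4.85 and 5.42 with UK5099. It was 15.5, 14.4 and 13.8 with butyrate and 18.8, 14.2 and 14.6 with the combination. The butyrate and combination samples overlapped, and the other groups were separate. The ratios to vehicle were 2.63, 7.60 and 8.28 for UK5099, butyrate and the combination, and the coefficients were 1.05 ± 0.09, 2.42 ± 0.09 and 2.52 ± 0.09. The highest Aqp4 value came from combination replicate 1, and without it and UK5099 replicate 1 the combination coefficient was 2.401. Aqp4 overlaps Gm50048 on the opposite strand, and whether counting used the strand was not given in the sources used here.

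Aqp5 (ENSMUSG00000044217, chromosome 15, 99488663 to 99492710, plus strand) was highest with butyrate alone. Its TPM was 2.01, 1.89 and 1.87 with vehicle and 2.47, 3.48 and 2.33 with UK5099. It was 5.46, 7.03 and 7.03 with butyrate and 2.67, 4.33 and 3.87 with the combination. The butyrate samples lay above all others, and the UK5099 and combination samples overlapped. The ratios to vehicle were 1.44, 3.38 and 1.88, and the coefficients 0.35 ± 0.16, 1.35 ± 0.16 and 0.64 ± 0.16. The combination coefficient was 0.80 without UK5099 replicate 1 and combination replicate 1. After median of ratios scaling of the samples it was 1.01, which is past the coefficient limit of 1 used for calls (4.67% of all genes called there).

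Aqp1 (ENSMUSG00000004655, chromosome 6, 55313417 to 55325540, plus strand) was barely detected, with 91 fragments in all 12 samples. The vehicle samples held 3, 2 and 2 fragments, the UK5099 samples 5, 5 and 9, the butyrate samples 16, 13 and 15, and the combination samples 7, 5 and 9. The butyrate samples lay above the rest, as for Aqp5. The ratio to vehicle was 2.49 with UK5099 (95% interval 1.001 to 6.998), 5.04 for butyrate (2.25 to 13.3) and 2.04 for the combination (0.836 to 5.68), by exact intervals over summed fragments that cover counting error only. Endothelial and erythroid genes, among which Aqp1 is best known, were themselves near 0. None of the 4 endothelial markers in the table, of 6 listed, and none of the 3 erythroid markers, of 4 listed, reached 1 TPM in any group, and their sums were at most 0.159 and 0.332 exonic FPKM.

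Aqp11 (ENSMUSG00000042797, chromosome 7, 97373213 to 97387496, minus strand) had the ratios to vehicle nearest to 1, at 0.742 with UK5099, 1.11 with butyrate and 0.854 with both. Its TPM was 0.920, 0.917 and 0.906 with vehicle, 0.708, 0.758 and 0.567 under UK5099, 0.878, 1.10 and 1.08 under butyrate, and 0.800, 0.726 and 0.816 under both. UK5099 and combination samples lay below vehicle in TPM. The direction for the combination depended on the scaling, with coefficients of -0.10 as deposited and 0.13 after median of ratios scaling. Genes averaging 1 TPM or more shifted downward as a whole in the deposited values, with median coefficients of -0.12 under UK5099, -0.30 under butyrate and -0.41 under both, and coefficients of this size are read relative to that shift. Mip, the lens fiber aquaporin, had 19 fragments in all 12 samples, and Aqp2, Aqp6, Aqp8 and Aqp12 were not analysed here.

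A gene was called where the adjusted p was under 0.01 and the absolute coefficient over 1. Against vehicle, 2 of the 6 aquaporins were called with UK5099 (Aqp3 and Aqp4), where 1.84% of all genes were called. With butyrate 3 were called (Aqp3, Aqp4 and Aqp5), where 3.54% of all genes were. With the combination 2 were called (Aqp3 and Aqp4), where 6.42% of all genes were. All were higher than vehicle, a direction in which 0.928%, 1.13% and 1.79% of all genes were called under UK5099, butyrate and both drugs, and since the genes were chosen with these contrasts in view, nothing is read from the counts. On recovered fragments, where no constant damps low genes, 3 were called with UK5099 (5.80% of all genes), 5 with butyrate (10.5%) and 4 with the combination (14.0%). Aqp9 was added in all 3 contrasts, Aqp1 with butyrate and Aqp5 with the combination. In TPM, all 6 genes were without overlap between UK5099 and vehicle (49.2% of all genes), 5 between butyrate and vehicle (60.1%) and 6 between the combination and vehicle (64.7%). The same held for 3 between the combination and UK5099 (57.7%), 5 between the combination and butyrate (47.5%) and 6 between butyrate and UK5099 (54.6%), so nothing is read from these counts either.

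**Figure D2:**
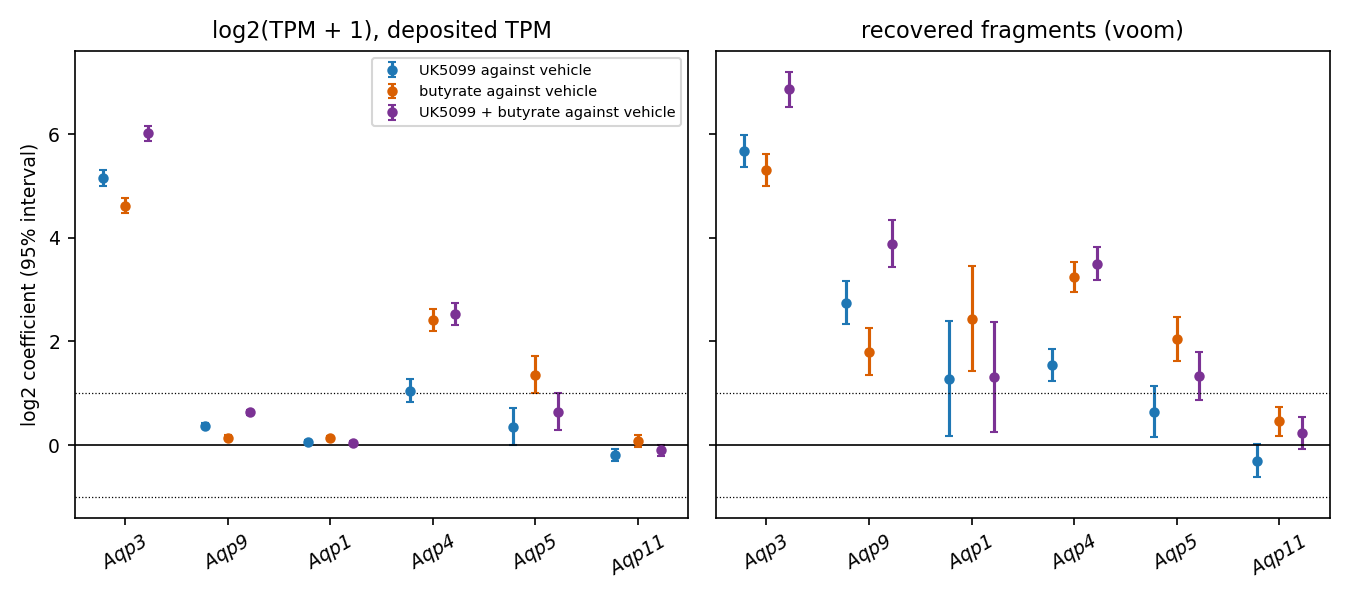
Coefficients against vehicle on the log2 scale (y axis) for each of the 6 genes, from log2(TPM + 1) on the left and from recovered fragments on the right, with 95% intervals as bars, 12 samples in each fit and dotted lines at the limits of 1 and -1 used for calls. Aqp3 leads on both scales, while Aqp9 moves from at most 0.64 on the left to between 1.80 and 3.88 on the right.

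The level with both drugs was set beside the sum and the product of the single-drug effects, in deposited TPM. For Aqp3 the combination mean was 279.5 TPM, against 255.0 TPM for vehicle plus both single-drug increments, a difference of 24.5 ± 10.2 TPM (SE, n = 3 per group). Multiplying the single-drug ratios would have given 4822 TPM. The distance from the sum depends on the scaling, since deposited TPM shifted downward as a whole, most with both drugs. In exonic FPKM the Aqp3 means were 1.93, 93.7, 75.9 and 211 with vehicle, UK5099, butyrate and both. The interaction coefficient on the log2 scale, 0 for multiplying effects, was -3.75 ± 0.09, the 4th lowest of 24674 genes, and -3.79 without the 2 libraries that stood apart. For Aqp9 the combination exceeded the sum, 0.648 against 0.477 TPM, a difference of 0.170 ± 0.031 TPM. For Aqp4 it was 15.9 against 17.7 TPM, a difference of -1.83 ± 1.57 TPM.

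Aqp5 and Aqp1 lay below the sum. For Aqp5 the combination mean was 3.62 TPM against a sum of 7.34, a difference of -3.72 ± 0.81 TPM, and for Aqp1 it was 0.0549 against 0.175, a difference of -0.120 ± 0.016 TPM. For Aqp11 the values were 0.781 and 0.782 TPM. An interaction was called for 2 of 6 aquaporins (Aqp3 and Aqp5, -1.06 ± 0.22), where 1.01% of all genes were called and 0.499% called lower, as both of these were. On fragments 4 were called (2.71% of all genes), with Aqp1 and Aqp4 added. The Aqp5 call was lost, with coefficients between -0.90 and -1.17 over the 12 fits, when any of 10 of the 12 samples was left out, and held without butyrate replicate 1 or combination replicate 2. Without UK5099 replicate 1 and combination replicate 1 the Aqp5 value was -0.95, not called, and the Aqp4 value was -1.09, called, against -0.95 ± 0.13 with all samples.

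**Figure D3:**
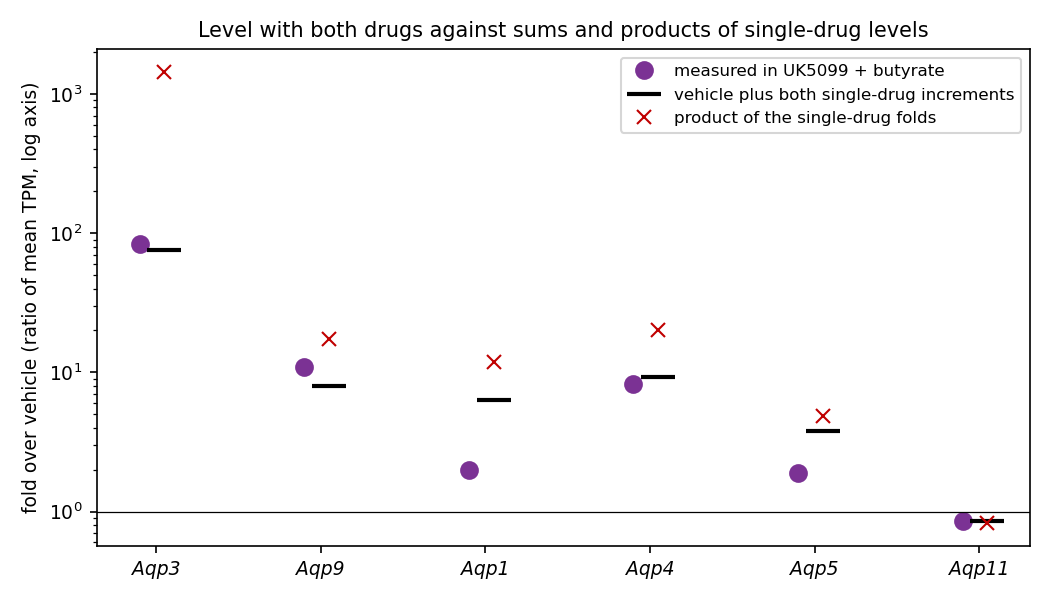
Ratio of mean TPM to vehicle (y axis, log scale) for each of the 6 genes with both drugs (points), beside vehicle plus both single-drug increments (bars) and the product of the single-drug ratios (crosses). In deposited TPM the Aqp3 point, 83.7, lies just above its bar and far below its cross. The points of Aqp1, Aqp5 and, by less, Aqp4 lie below both.

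The contrasts between treated groups were not those by which the genes were picked, but they are built from the same samples and from differences of the same coefficients, so the values of Aqp3 in them are given as a description with no p-value. The other aquaporins were taken by family name with earlier results known, so their adjusted p in these contrasts are not independent of that choice. Adding butyrate to UK5099 left Aqp3 1.83 times as high as with UK5099 alone, with a coefficient of 0.86 ± 0.07, under the coefficient limit. It passed that limit after median of ratios scaling (1.22, where 1.80% of all genes were called), after quantile normalisation (1.04) and on fragments (1.18). Aqp4 rose in the same contrast, with a coefficient of 1.47 ± 0.09 (adjusted p = 7.80e-07, limma over all genes), and was the 1 aquaporin called there, where 1.97% of all genes were called. Its coefficient was 1.33 without UK5099 replicate 1 and combination replicate 1. On fragments 3 were called (8.01% of all genes), Aqp9 and Aqp3 with it. For Aqp5, Aqp11 and Aqp1 the coefficients were 0.29 (95% interval -0.07 to 0.65), 0.09 (-0.03 to 0.20) and -0.02 (-0.05 to 0.02).

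With UK5099 added to butyrate, Aqp3 was 2.66 times as high as with butyrate alone, a coefficient of 1.40 ± 0.07, which is the sum of its UK5099 and interaction coefficients. It was the 1 aquaporin called in this contrast, where 0.908% of all genes were called, and on fragments Aqp9 was called too (2.08 ± 0.17, adjusted p = 5.55e-10, with 3.32% of all genes called). Aqp4 had a coefficient of 0.11 with a 95% interval of -0.11 to 0.32 (adjusted p = 0.468, limma) and one of -0.01 without combination replicate 1. Aqp5 was lower when UK5099 was added, with a coefficient of -0.71 ± 0.16 (adjusted p = 0.0061, limma), within the coefficient limit. Without UK5099 replicate 1 and combination replicate 1 the Aqp5 coefficient was -0.55.

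Butyrate was then compared directly with UK5099. Aqp4 and Aqp5 were higher with butyrate, with coefficients of 1.36 ± 0.09 (adjusted p = 2.04e-06, limma) and 1.00 ± 0.16 (adjusted p = 0.00053, limma). These were the 2 aquaporins called, where 1.86% of all genes were called. The Aqp5 coefficient sat on the limit. Its call was lost without UK5099 replicate 1, UK5099 replicate 3, butyrate replicate 2 or butyrate replicate 3, with a lowest value of 0.92. It was also lost without UK5099 replicate 1 and combination replicate 1 together (0.95). On fragments the Aqp5 coefficient was 1.41 ± 0.22 (adjusted p = 1.08e-05, limma with voom), where the same 2 were called (7.22% of all genes). Aqp3 was lower with butyrate than with UK5099 by a coefficient of -0.54 ± 0.07, within the limit, and by -0.33 after median of ratios scaling. Aqp9 had the same direction on fragments, -0.94 ± 0.21 (adjusted p = 0.00060, limma with voom).

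Levels of different genes were compared per length of exon. With vehicle, all aquaporins of the table together, the 6 with Aqp7 and Mip, had 4.29 ± 0.22 exonic FPKM (SD, n = 3). Their sum was 99.5 ± 4.0 under UK5099, 91.6 ± 1.6 under butyrate and 229.5 ± 14.0 under both. Aqp3 made up 45.0% ± 2.7 of this sum in vehicle samples, 94.2% ± 0.3 under UK5099, 82.8% ± 0.4 under butyrate and 92.2% ± 0.4 under both. Aqp4 came next in every group, at 29.9% ± 2.4, 3.59% ± 0.12, 13.2% ± 0.8 and 6.02% ± 0.59. Aqp5 made up 13.5% ± 0.4 with vehicle and 0.630% ± 0.180 with the combination. In vehicle the per-length order of the 6 genes was Aqp3, Aqp4, Aqp5, Aqp11, Aqp9 and Aqp1, and no neighbours in it overlapped between samples. Mip and Aqp7, left out of this order, overlapped Aqp1, with shares of 0.269% to 0.903% and 0.204% to 0.684% against 0.440% to 0.737%. In the combination Aqp9, at 2.30 ± 0.15 exonic FPKM, had passed Aqp5, at 1.43 ± 0.34, and with UK5099 alone these 2 genes overlapped.

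**Figure D4:**
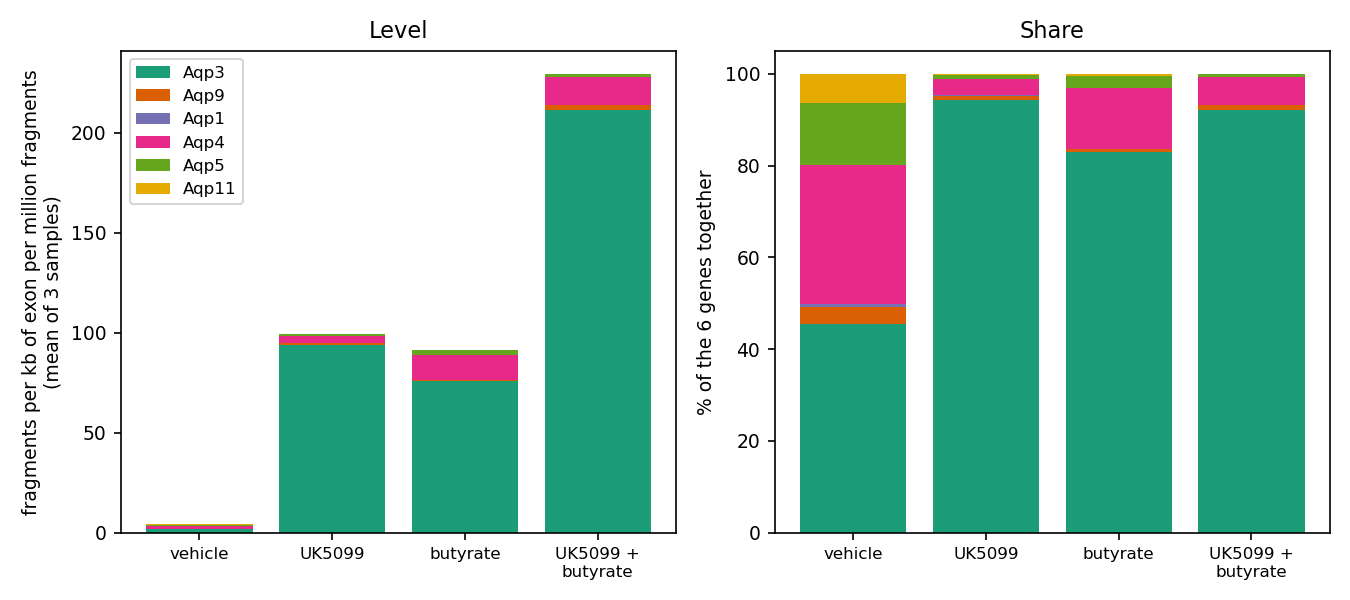
Mean level of the 6 aquaporins in exonic FPKM (left, stacked bars from 0, means of 3 samples per group) and their shares of the total of the 6 in percent (right). Aqp3 is below the other 5 genes together in vehicle samples and fills most of the bar in each treated group.

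Genes with the profile most like that of Aqp3 were ranked by Pearson's r of log2(TPM + 1) over the 12 samples, among 2037 genes that reached a group mean of 1 TPM and whose group means spanned at least 1 on that scale. The 5 most similar were Teddm3 (r = 0.999), Gm6551 (0.998), H60c (0.998), Zfp750 (0.997) and Aldh3a1 (0.995). The 12 samples fall into 4 treatment groups, so such values mainly record a shared order of group means. Zfp750, a transcription factor of epidermal differentiation, had mean levels of 11.7, 71.5, 53.7 and 82.8 TPM in the order vehicle, UK5099, butyrate, both. Aldh3a1, an aldehyde dehydrogenase abundant in cornea and stomach, had 6.80, 56.9, 50.4 and 84.3 TPM. H60c encodes a ligand of the activating receptor NKG2D. For Teddm3, Gm6551 and H60c only 1 of 9, 1 of 12 and 1 of 3 values under 1000 fragments were whole numbers, so fragments could not be recovered for them and their levels are uncertain.

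**Figure D5:**
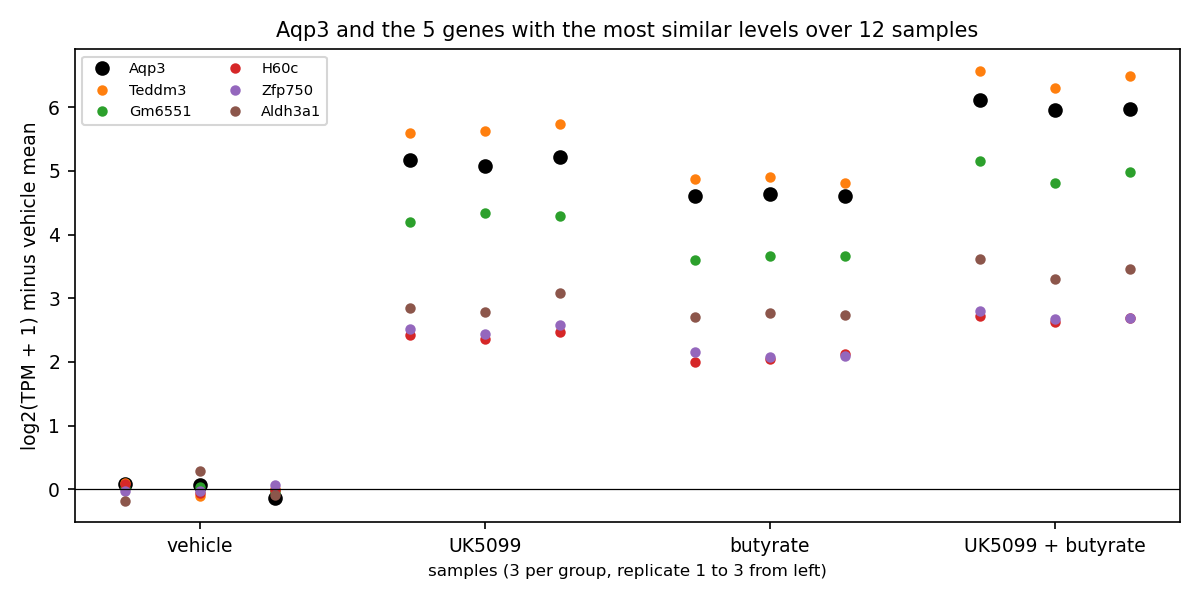
log2(TPM + 1) minus the vehicle mean (y axis) of Aqp3 (large black points) and the 5 genes with the highest correlation with it, in the 12 samples (x axis, 3 per group). All 6 genes lie lowest with vehicle and highest with the combination, with butyrate below UK5099.

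For Aqp4 the 2 most similar genes were Dapl1 (r = 0.996) and Myc (0.995), and for Aqp5 they were Rhbdl1 (0.948) and Agr2 (0.932). Myc, a growth-promoting transcription factor, had mean levels of 88.3, 132, 202 and 210 TPM in the order vehicle, UK5099, butyrate and combination. Agr2, a protein disulfide isomerase of secretory epithelia, had 1.92, 2.05, 11.5 and 4.48 TPM, with butyrate highest as for Aqp5. Rhbdl1 levels are uncertain, since only 1 of its 12 values was a whole number of fragments. Between members, r was 0.82 for Aqp3 with Aqp9 and 0.83 for Aqp3 with Aqp4.

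The protein-coding neighbours of Aqp3 in the table, chosen by position after the values had been seen, lay between 0.460 and 1.07 times their vehicle levels, Aqp7 apart. Nol6, a nucleolar protein gene 16.2 kb away on the same strand, had ratios to vehicle of 0.851, 0.629 and 0.460 under UK5099, butyrate and both. Ube2r2, a ubiquitin-conjugating enzyme gene 37.6 kb away on the same side as Nol6, had ratios of 1.07, 0.870 and 0.920. Nfx1, 66.7 kb away on the other side beyond Aqp7, had ratios of 0.907, 0.961 and 0.798.

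Genes that handle glycerol inside the cell were described by a list of 27 enzymes, of which 26 were in the table. With UK5099 none was called higher and 1 lower, and with butyrate none higher and 2 lower. With the combination none was higher and 4 were lower. Over all genes the shares called in these contrasts were 1.84%, 3.54% and 6.42%, and those called higher 0.928%, 1.13% and 1.79%, so a count of none higher among 26 is near the background. Genes named with coefficients from this list and those below were picked because they were called, so no p-value is given for them. Gpd1, the cytosolic glycerol 3-phosphate dehydrogenase, fell from 5.23 ± 0.20 TPM with vehicle to 1.64 ± 0.20 with UK5099 (coefficient -1.24 ± 0.05). It fell to 1.30 ± 0.09 TPM with butyrate (-1.44 ± 0.05) and had 0.438 ± 0.043 TPM in the combination. Pnpla2, the triglyceride lipase that starts glycerol release, fell from 46.0 ± 1.4 to 21.6 ± 0.3 TPM with butyrate (-1.05 ± 0.04). That call was lost after median of ratios scaling (-0.70). Gpd1l and Pgp were the other genes lower with the combination. The 20 list genes averaging 1 TPM or more had median coefficients of -0.20, -0.40 and -0.57 for UK5099, butyrate and both, against -0.12, -0.30 and -0.41 over all such genes. After median of ratios scaling, where 1.67%, 3.02% and 4.67% of all genes were called for UK5099, butyrate and both, the split was 1 higher and 1 lower under butyrate and 1 and 2 under both. On fragments, where 5.80%, 10.5% and 14.0% of all genes were called, it was 1 and 1, 3 and 1, and 3 and 2 for the 3 contrasts, with Dgat2, an enzyme of triglyceride synthesis, called higher in all 3 contrasts at 1.14, 2.11 and 2.29.

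Cell volume and osmolyte genes were listed as 26, with 25 in the table, and none was called higher in any contrast against vehicle, near the background of 0.928%, 1.13% and 1.79% of all genes called higher. Under UK5099 1 was called lower, under butyrate 2 and under both 2, where 1.84%, 3.54% and 6.42% of all genes were called in either direction. Slc12a2, the Na-K-2Cl cotransporter that loads epithelial cells with chloride, fell from 55.0 ± 1.7 TPM with vehicle to 21.8 ± 0.4 with UK5099 (-1.30 ± 0.06). It fell to 18.5 ± 0.3 TPM with butyrate (-1.52 ± 0.06) and had 4.45 ± 0.52 TPM in the combination. Ano6, a scramblase and ion channel, was the second of the 2 genes called with butyrate (-1.03 ± 0.03). It was not called after median of ratios scaling (-0.73). Slc12a2 and Ano6 were also the 2 called with the combination, which became 1 higher (Akr1b3, aldose reductase, which makes the osmolyte sorbitol) and 1 lower after median of ratios scaling. The median coefficients of the 22 list genes at 1 TPM or more were -0.14, -0.45 and -0.50, against -0.12, -0.30 and -0.41 over all such genes, and -0.02, -0.12 and -0.09 after median of ratios scaling.

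Genes of epithelial ion and fluid transport changed in both directions. Of 26 listed and 22 in the table, 1 was higher and 1 lower with UK5099, 2 higher and 4 lower with butyrate, and 2 higher and 7 lower with the combination. The shares of all genes called in these contrasts were 1.84%, 3.54% and 6.42%. Car12, a carbonic anhydrase of epithelial surfaces, rose from 1.67 ± 0.08 TPM to 9.68 ± 0.12 with UK5099 (2.00 ± 0.03). It rose to 26.3 ± 0.2 TPM with butyrate (3.35 ± 0.03) and stood at 28.2 ± 0.8 in the combination. Scnn1b, a subunit of the epithelial sodium channel, rose from 0.308 ± 0.030 to 3.85 ± 0.08 TPM with butyrate (1.89 ± 0.03). Atp1b1, a subunit of the sodium pump, fell with UK5099 from 52.8 ± 1.3 to 22.9 ± 0.9 TPM (-1.17 ± 0.03). Kcnn4, a calcium-activated potassium channel, fell with butyrate from 62.7 ± 0.6 to 23.8 ± 0.5 TPM (-1.36 ± 0.04). The other genes lower with butyrate were Slc4a4, Slc4a7 and St14. After median of ratios scaling the butyrate split became 3 higher and 1 lower, and that of the combination 4 and 4, where 3.02% and 4.67% of all genes were called. On fragments, with 5.80%, 10.5% and 14.0% of all genes called, the splits were 3 and 5, 3 and 4, and 5 and 10 for UK5099, butyrate and both. The median coefficients of the 14 list genes at 1 TPM or more were -0.09, -0.24 and -0.76, against -0.12, -0.30 and -0.41 over all such genes. After median of ratios scaling, with all-gene medians within 0.01 of 0, they were 0.06, 0.12 and -0.28, so the sign turned for UK5099 and for butyrate.

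Markers of other cell types that could carry these channels were measured beside them. Glial genes, 4 of 4 in the table, summed to between 0.363 and 0.477 exonic FPKM with vehicle, 0.320 and 0.685 with UK5099, 0.583 and 0.660 with butyrate, and 0.452 and 0.553 with both, and none reached 1 TPM. Of these Slc1a3, a glutamate transporter, had 0.0707 TPM with vehicle, 0.0702 with UK5099, 0.159 with butyrate and 0.135 with both, and Sox10, a transcription factor of glia, averaged at most 1.67 fragments per sample in any group. Hepatocyte genes, 3 of 3 in the table, summed to at most 1.39, mostly from Alb in a UK5099 sample, and Alb was at 0 with vehicle. Of 7 leukocyte genes, 5 were in the table and Ptprc, the defining surface phosphatase of leukocytes, averaged at most 1.67 fragments per sample in any group. The summed leukocyte level nevertheless was between 7.27 and 7.60 with vehicle, 9.54 and 9.83 with UK5099, 25.3 and 26.0 with butyrate, and 34.2 and 38.5 with both. Nearly all of it came from Cd68, a lysosomal protein also made by other cells, at 24.2 TPM with vehicle and 91.7 with the combination. Cd79a had 0.189 TPM with vehicle, 0.178 with UK5099, 0.584 with butyrate and 0.582 with both. Itgam averaged 0.667 fragments per sample with vehicle and 9.33 with both, and Csf1r at most 5.21 in any group. Fibroblast genes, 7 of 7 in the table, summed to between 1.86 and 2.09 in vehicle samples, 2.47 and 2.88 under UK5099, 16.05 and 16.4 under butyrate and 2.96 and 3.55 under both. Dcn was the 1 fibroblast gene listed at 1 TPM or more with butyrate, at 9.51 ± 0.13 TPM against 0.762 with vehicle. This was also the group where Aqp5 and Aqp1 were highest. The rest of the list did not rise with Dcn. Col1a1, Col1a2 and Col3a1 were lower with butyrate than with vehicle (0.713 against 1.01, 0.146 against 0.183 and 0.0486 against 0.115 TPM). Pdgfra, Pdgfrb and Lum were slightly higher but at most 0.175 TPM. Smooth muscle genes, 3 of 5 in the table, summed to at most 0.287. The part of the glial, Cd68, Cd79a, Itgam and Dcn differences in the aquaporin levels was not tested.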

How the data were processed

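RNA-seq was measured in 12 samples, 4 groups of 3. The deposited table holds TPM per gene. The labels describe stranded paired-end libraries after rRNA depletion and mRNA enrichment. The submitters' processing notes name STAR 2.7.9a, Partek and GRCm39, whereas the study's methods name fastp, STAR, RSEM and GRCm38, so how the authors made the TPM values is not settled here. Table coordinates are given as deposited. In 100% of genes the length was the genomic span. Fragments were recovered from the steps of the TPM values, and 75.4% to 76.6% of protein-coding values under 1000 fragments per sample came out whole within 0.02. Member values under 1000 fragments were all whole.

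limma 3.58.1 (R 4.3.3) was fitted to log2(TPM + 1) over all 24674 genes and 12 samples with terms for UK5099, butyrate and their interaction, after the study's model. Benjamini-Hochberg adjusted p-values ran over all genes, and genes were called at an adjusted p under 0.01 and an absolute coefficient over 1. SE are from limma. Alternatives were a constant of 0.1 TPM, a filter at a mean of 1 TPM, median of ratios and quantile scaling, a replicate block, each sample left out, and voom on recovered fragments. TPM on exonic length, and leaving out UK5099 replicate 1 with combination replicate 1, were added after seeing the data. Exonic lengths came from GENCODE M21 by gene identifier (23913 genes). Promoter windows came from RefSeq (GRCm38.p6), with 5 of 6 genes matched. The fits were tested on simulated data. Exact intervals used a confidence level of 95%. Depth was 33252132 to 43499017 fragments.

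The members and lists were chosen with earlier results of these data known. Named genes were the members, the rest of the family, from each list the 3 called genes with the largest absolute coefficient for UK5099 and for butyrate, and the genes most like Aqp3 (5) and like Aqp4 and Aqp5 (2 each). Other genes named were singled out after their values were seen. No columns of other samples were present.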

Additional observations from a re-analysis of the deposited data

Results flagged for a closer look

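For 2 aquaporins the UK5099 coefficient depended on whether butyrate was present, by the interaction term of the fit over all genes. For Aqp3 the interaction coefficient was -3.75 on the log2 scale, and the UK5099 difference was 5.15 without butyrate and 1.40 with it. For Aqp5 it was -1.06, from 0.35 without butyrate to -0.71 with it. The Aqp5 call was lost when any of 10 of the 12 samples was left out. It was also lost without UK5099 replicate 1 and combination replicate 1 together (-0.95). Aqp3 was picked in part by its interaction, and the interaction coefficients of both genes are descriptions.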

How the results depend on the processing

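No coefficient that was called as deposited changed sign under any alternative run. Of uncalled values 14 did, all of Aqp9, Aqp1, Aqp4 or Aqp11, among them the Aqp9 interaction (0.13 as deposited, -0.67 with voom) and Aqp4 for the combination against butyrate (-0.01 without combination replicate 1). The Aqp3 coefficient for the combination against UK5099 passed the limit of 1 under median of ratios scaling (1.22), quantile normalisation (1.04) and voom (1.18), and ranged from 0.82 to 0.90 when a sample was left out. Of the other aquaporins, 642 of 679 values kept their side of the limits, 20 gained and 17 lost a call. The Aqp5 interaction was called in 2 of the 12 fits that left out a sample, and lay between -1.17 and -0.90.

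Counts of called aquaporins moved as follows. For the combination against butyrate the count was 2 with a constant of 0.1 TPM, with voom and with exonic length. For the combination against UK5099 it was 2 with median of ratios scaling and quantile normalisation, and 3 with voom. For the interaction it was 1 with quantile normalisation, 3 with a constant of 0.1 TPM and with exonic length, 4 with voom and 1 to 2 when a sample was left out. For butyrate against UK5099 it was 1 to 2 when a sample was left out, and 1 without UK5099 replicate 1 and combination replicate 1. Against vehicle it was 3 for UK5099 and 3 for the combination with a constant of 0.1 TPM and with exonic length, 3 for the combination with median of ratios scaling, and with voom 3 under UK5099, 5 under butyrate and 4 under both.

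For the lists, a constant of 0.1 TPM gave 7 glycerol genes with the combination, 3, 5 and 4 volume genes for UK5099, butyrate and the combination, and 5 ion transport genes with UK5099. Median of ratios scaling gave 1 volume gene with butyrate. Quantile normalisation gave 1 glycerol, 1 volume and 3 ion transport genes with butyrate. Voom gave 2 and 4 glycerol genes with UK5099 and butyrate, 3 volume genes with UK5099, and 8 and 15 ion transport genes with UK5099 and the combination. Exonic length, chosen after seeing the data, gave 3 and 4 volume genes with UK5099 and the combination and 4 ion transport genes with UK5099. The causes were not tested.

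Samples with the same replicate number did not deviate together (18 pairs, r from -0.107 to 0.029). With the replicate number as a block, Aqp3 coefficients stayed at 5.15, 4.62 and 6.02 and no call of an aquaporin or list changed. The filter at a mean of 1 TPM left out Aqp9, Aqp1 and Aqp11. Depth limits Aqp1, Aqp7 and Mip, whose differences rest on few fragments.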
